A study of Mus musculus with 6 samples.

Results

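The genes described here make, break down and read cyclic nucleotides. They are the adenylyl cyclases (Adcy), phosphodiesterases (Pde), protein kinase A subunits (Prka), guanylyl cyclases (Gucy), Rapgef exchange factors, cyclic nucleotide-gated (CNG) channel subunits and anoctamins (Ano). Members were chosen by gene symbol alone, which gave 71 of the 55341 genes in the count table. They comprise 10 adenylyl cyclases, 24 Pde genes, 2 catalytic and 4 regulatory kinase subunits, 9 guanylyl cyclases, 6 Rapgef genes, 6 CNG subunits and 10 anoctamins. Their RNA was counted in 6 single olfactory sensory neurons of wild-type C57BL/6 mice aged 6 weeks. Each neuron was frozen after physiological recording and sequenced as 1 CEL-Seq2 library, a method that counts the 3′ ends of transcripts. All neurons form 1 group with no treatment. The labels name no animals, so intervals cover counting error only, and no p-value is given for a difference between cells. Intervals of counts summed over cells leave out the spread between those cells.

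In the cilia of an olfactory neuron, an odorant receptor acts through a G protein on adenylyl cyclase, and the cAMP formed opens CNG channels. Calcium entering through these channels opens the chloride channel Ano2, which amplifies the current, and phosphodiesterases remove the cAMP. Away from the channels, cAMP acts through protein kinase A, in which regulatory subunits hold catalytic subunits inactive, and through the Epac exchange factors Rapgef3 and Rapgef4.

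Depth differed widely, from 8613 counts in cell 1 and 11725 in cell 6 to 60902 in cell 4 and 122546 in cell 3, with 34478 in cell 2 and 22525 in cell 5. A single count was worth 116 CPM (counts per 1000000 counts of a library) in cell 1 and 8.16 CPM in cell 3. Mature olfactory neuron markers were present in each cell, with 6 of 7 found in all cells and a summed level of 16648 to 26123 CPM. Of 6 markers of necklace and other atypical neurons, 1 (Car2) was found. Marker lists of basal, microvillar, immune and endothelial cells had at most 2 counts in any cell, and that of ensheathing cells at most 5. Gland markers were highest in cell 2 (19839 CPM), red blood cell markers in cell 4 (12610.4 CPM) and sustentacular markers in cell 2 (841 CPM). In cell 6 these lists stood at 0, 171 and 0 CPM. Immature neuron markers summed to 581, 1508, 963, 2923, 2220 and 2132 CPM in cells 1 to 6.

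Most counts were of 1 isoform among the cyclases (Adcy3), the anoctamins (Ano2), and the catalytic (Prkacb) and regulatory (Prkar1a) kinase subunits. Cnga2 led the CNG subunits, followed by Cnga4 and Cngb1. The phosphodiesterases were divided among Pde4a, Pde1c and Pde6d, the 3 Rapgef genes found were uneven between cells, and guanylyl cyclases had 1 count in all. At least 1 count was found for 34 of 71 members (47.9%), beside 49.8% of protein-coding genes and 29.8% of all genes. In at least 3 cells 19 members were found (26.8%, against 24.4% of protein-coding genes and 12.4% of all genes). In all 6 cells 5 were found, namely Adcy3, Pde4a, Pde6d, Prkacb and Prkar1a (7.04%, against 2.89% and 1.5%). Detection of the family as a whole was thus close to that of protein-coding genes at the first 2 thresholds. Members with 10 or more counts over all cells numbered 17 (protein-coding background 19.4%, all genes 9.7%) and held 1151 of the 1193 member counts.

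**Figure D1:**
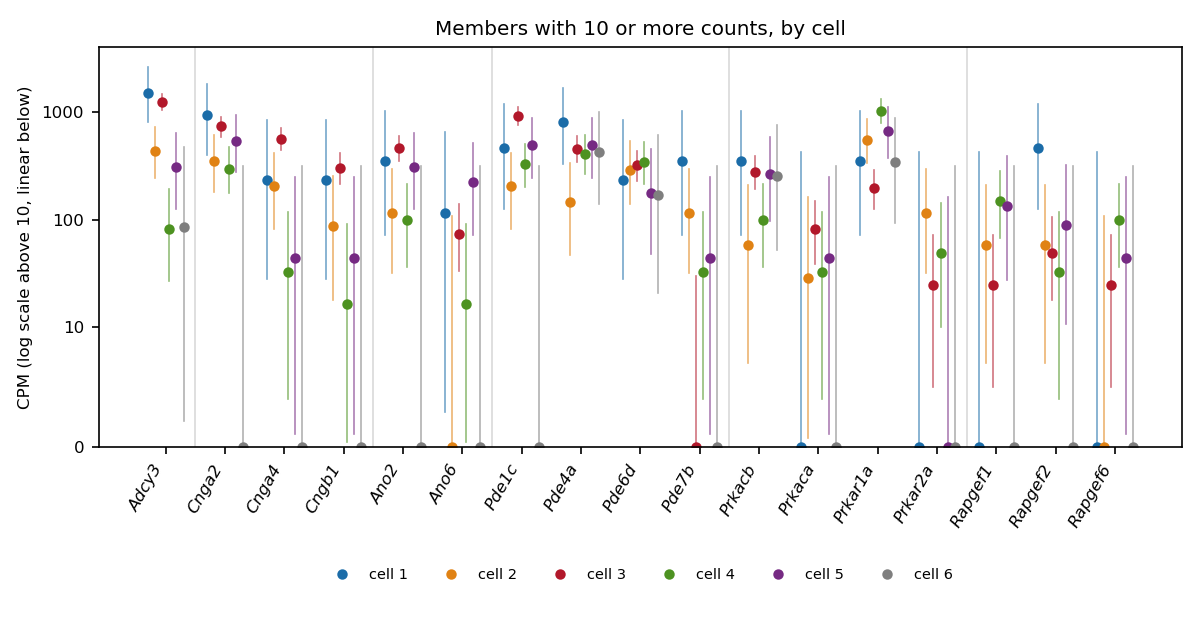
CPM of the 17 members with 10 or more counts in each of the 6 cells, grouped by class. Points are CPM on an axis that is logarithmic above 10 and linear below, lines are exact 95% Poisson intervals, and points at 0 had no count; Adcy3 was lowest in cell 4, at 82.1 CPM, and highest in cell 1, at 1509 CPM, and Pde6d stayed between 171 and 345 CPM.

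Stretches upstream of annotated transcription starts are printed for 4 cilia and dendrite genes of the cAMP pathway, because the transcription factors of the Ebf family, known from olfactory neurons, bind a palindrome with the core CCCNNGGG. The sequences are from RefSeq (GRCm38.p6), 5′ to 3′ on the strand of the gene, with the core match in capitals.
Cnga2, chrX:71991747-71991826, plus strand: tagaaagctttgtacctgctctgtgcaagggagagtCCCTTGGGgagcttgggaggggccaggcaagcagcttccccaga
Ano2, chr6:125711085-125711164, plus strand: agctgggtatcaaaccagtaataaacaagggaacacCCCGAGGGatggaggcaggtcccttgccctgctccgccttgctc
Cngb1, chr8:95306671-95306750, minus strand: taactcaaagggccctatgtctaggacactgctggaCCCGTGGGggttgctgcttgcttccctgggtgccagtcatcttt
Pde4a, chr9:21183909-21183988, plus strand: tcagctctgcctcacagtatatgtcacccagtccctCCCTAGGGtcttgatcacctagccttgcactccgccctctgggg
Counted from the start site, the cores begin at base -66 in Cnga2, -67 in Ano2, -129 in Cngb1 and -156 in Pde4a, whose window holds another core at -240. The Ano2 and Pde4a stretches belong to 1 of 3 annotated starts each. The Cngb1 stretch belongs to its annotated start in RefSeq, whereas olfactory neurons are known for a shorter Cngb1 transcript whose start was not looked at.

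Promoter windows of 250 bases before to 50 after a start were found for 58 of the 71 members. The core CCCNNGGG, read on both strands at once because it is a palindrome, occurred in 19 of these 58 genes (32.8%), against 15.4% of all genes and 17.6% of protein-coding genes in the table. By window, which allows for members having several starts, the shares were 20.4% of 103 member windows and 15.6% of windows of protein-coding genes. Of the 7 members known from olfactory signalling, 5 had the core (Cnga2, Cnga4, Cngb1, Ano2 and Pde4a) and Adcy3 and Pde1c did not. By window these 7 had the core in 5 of 14 (35.7%), against 15.6% of windows of protein-coding genes. Sequences are printed only for genes with a match before the start. In Cnga4 the match lies after the start. The longer palindrome, this core with a T before it and an A after it, was present in 1.06% of all genes, 1 of 58 members (Prkar1b, which had no count) and none of those 7. The cAMP response element TGACGTCA occurred in 2.03% of all genes and, among the 58 members, in Prkar1a. These motifs were chosen with the counts known, and a match is only a run of letters.

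Among the adenylyl cyclases, which make cAMP, Adcy3 is the one known from olfactory cilia. It had 13, 15, 152, 5, 7 and 1 counts in cells 1 to 6, which are 1509, 435, 1240, 82.1, 311 and 85.3 CPM. Cells 1 and 3 were high and cells 4 and 6 low. Immature neuron markers, whose part in this was not tested, summed to 581, 1508, 963, 2923, 2220 and 2132 CPM in cells 1 to 6. Their genes differed: Stmn2 stood at 914 CPM in cell 3 and 597 CPM in cell 6, whereas Gap43 stood at 8.16 and 682 CPM. Stmn1 stood at 40.8 CPM in cell 3 and 853 CPM in cell 6. Marcksl1 and Dpysl3 had no count in either of these cells, and Gng8 had none in any cell. Scaled by TMM (trimmed mean of M values) or by median-of-ratios factors, Adcy3 was highest in cell 3 and lowest in cell 6. The exact 95% Poisson intervals of cell 3 (1051 to 1454 CPM) and cell 4 (26.7 to 192 CPM) did not overlap, while that of cell 6 reached from 2.16 to 475 CPM. Its share of all cyclase counts was 97.4% in cell 3, or 152 of 156 (95% Clopper-Pearson interval 93.6% to 99.3%). Cell 2 had the lowest share, 68.2%, or 15 of 22 (45.1% to 86.1%), and in cell 1 all 13 cyclase counts were of Adcy3. Adcy3 held 92.9% of the mean cyclase CPM over cells, and 93.5% when counts were divided by transcript length.

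The other cyclases were scarce. Adcy10, the soluble cyclase that responds to bicarbonate, had 4 counts, all in cell 2. The membrane cyclases Adcy7, Adcy6 and Adcy9 had 5, 2 and 1 counts over all cells. No count of Adcy1, Adcy2, Adcy4, Adcy5 or Adcy8 was found among 260789 counts, which allows up to 11.5 CPM each (3 counts) over the pooled cells. Adcy3 lies on chromosome 12 (4133103 to 4213525, plus strand, GRCm38) and shares 1380 exonic bases with Cenpo on the opposite strand. Cenpo had 0 counts in each cell. The strand setting of the counting is not known here, so reads in the shared bases cannot be assigned to either gene.

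The CNG channel of olfactory cilia is built from Cnga2, which can form a channel by itself, and the modulatory subunits Cnga4 and Cngb1. Cnga2 had 8, 12, 90, 18, 12 and 0 counts in cells 1 to 6, or 929, 348, 734, 296, 533 and 0 CPM. Cnga4 had 2, 7, 69, 2, 1 and 0 counts (232, 203, 563, 32.8, 44.4 and 0 CPM), and Cngb1 had 2, 3, 37, 1, 1 and 0 (232, 87.0, 302, 16.4, 44.4 and 0 CPM). Cells 4 and 5 thus had Cnga2 with few counts of either modulatory subunit, while cell 3 had all 3.

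The balance of subunits within a cell does not depend on how libraries are scaled. In cell 3, Cnga2 had 1.30 counts per Cnga4 count (95% interval 0.943 to 1.81). The ratio was 9 in cell 4 (2.15 to 80.0) and 12 in cell 5 (1.78 to 513). Counts summed over the 5 cells other than cell 3 gave 4.17 (2.19 to 8.60), with single cells from 1.71 in cell 2 to 12 in cell 5. Only the intervals of cells 3 and 4 lay apart among cells 1 to 5, since that of cell 5 starts below the upper end of cell 3. Cnga2 per Cngb1 was 2.43 in cell 3 (1.64 to 3.67) and 7.14 over the other cells (3.22 to 18.7), so these intervals overlapped. Cnga4 per Cngb1 was 1.86 in cell 3 (1.23 to 2.86) and 1.71 over the other cells (0.622 to 5.14).

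Subunits of other CNG channels were nearly absent. Cnga1, of rod photoreceptors, had 2 counts in cell 3 and 1 in cell 4. Cnga3, known from cones and from necklace olfactory neurons, and Cngb3, of cones, had none. Of the mean CNG CPM over cells, Cnga2 held 61.3%, Cnga4 23.2% and Cngb1 14.7%, and per kilobase of transcript Cnga2 held 62.5%. In cell 3 alone Cnga2 held 45.5% (38.4% to 52.7%) and Cnga4 34.8% (28.2% to 41.9%). Cnga2 lies on chromosome X (71991849 to 72010218), Cnga4 on chromosome 7 (105404568 to 105408742), both on the plus strand, and Cngb1 on chromosome 8 (95239045 to 95306585, minus strand).

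Among the anoctamins, a family of calcium-activated channels and lipid scramblases, Ano2 had 3, 4, 57, 6, 7 and 0 counts in cells 1 to 6 (348, 116, 465, 98.5, 311 and 0 CPM). Cell 3 was highest and cells 2 and 4 were low, while the 0 counts of cell 6 have an interval reaching 315 CPM. Of the anoctamin counts of cell 3, 57 of 70 were Ano2 (81.4%, 70.3% to 89.7%), against 7 of 14 for cell 5 (50%, 23.0% to 77.0%). Ano6, a phospholipid scramblase of many cell types, had 9 counts in cell 3, 5 in cell 5 and 1 each in cells 1 and 4. Ano8 had 6 counts over all cells. Ano1, the chloride channel of secretory epithelia, had 1 count in cell 3 and none in cell 2, where 0 counts allow up to 87.0 CPM. Gland markers summed to 979 CPM in cell 3 and to 19839 CPM in cell 2. Their part in the Ano1 count was not tested. The other 6 anoctamins had none. Ano2 lies on chromosome 6 (125690419 to 126040126, plus strand).

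The stacked shares by cell show 1 colour filling most of the cyclase and kinase panels, and several in the phosphodiesterase and Rapgef panels.

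**Figure D2:**
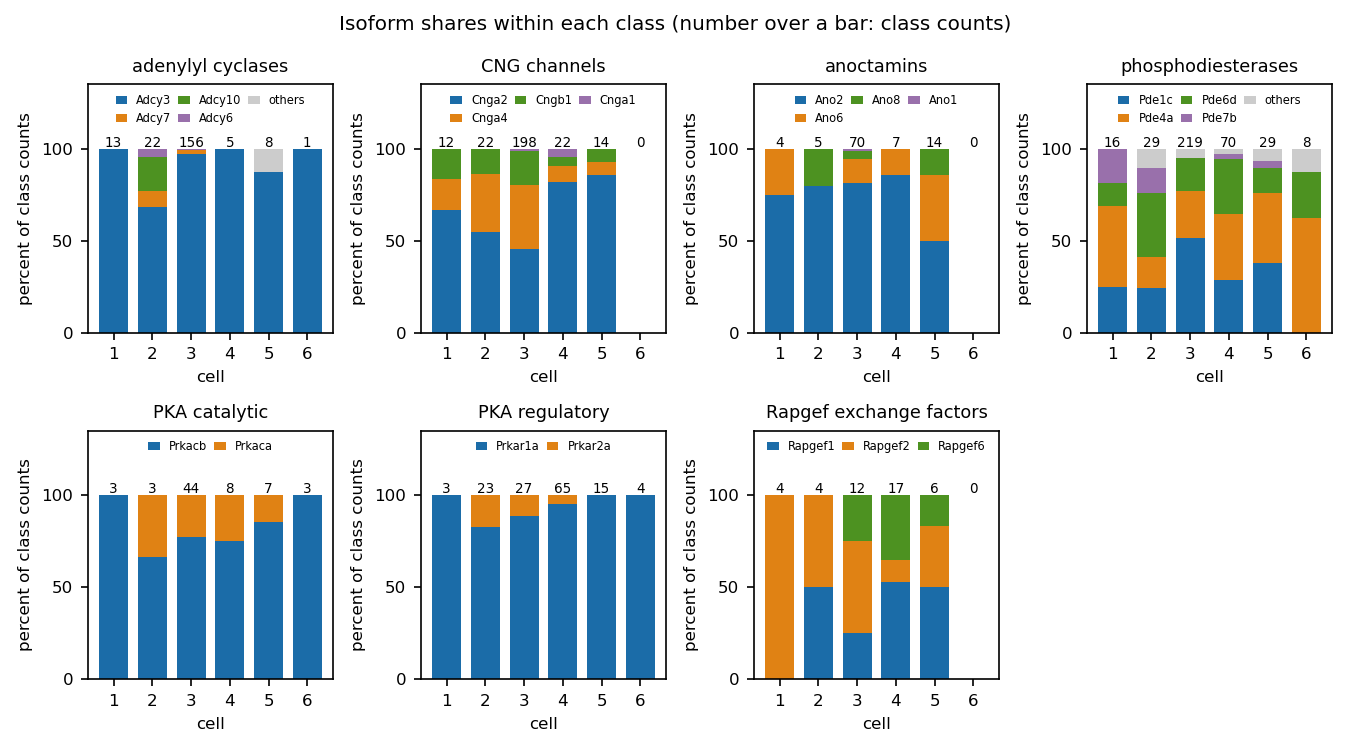
Percent of the counts of each class that each isoform held in cells 1 to 6, with the number of class counts above each bar and no bar where the class had no count. Adcy3 filled 68.2% to 100% of the cyclase counts, whereas Pde1c, Pde4a and Pde6d divided the phosphodiesterase counts; bars on fewer than 10 counts are imprecise.

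The Pde genes had the most counts of any class, 371, and the highest median summed level, 1218 CPM (682 to 1858 CPM). Pde1c, a calcium-dependent enzyme of the cilia that hydrolyses both cAMP and cGMP, had 4, 7, 113, 20, 11 and 0 counts in cells 1 to 6 (464, 203, 922, 328, 488 and 0 CPM). Pde4a, a cAMP-specific enzyme found in dendrite, cell body and axon rather than in the cilia, had 7, 5, 56, 25, 11 and 5 counts (813, 145, 457, 410 and 488 CPM in cells 1 to 5 and 426 CPM in cell 6). Pde1c was highest in cell 3 and absent from the counts of cell 6. Pde4a was found in each cell. Pde1c lies on chromosome 6 (56069804 to 56569103, minus strand) and Pde4a on chromosome 9 (21165714 to 21213248, plus strand).

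Within cells, Pde4a had 0.496 counts per Pde1c count in cell 3 (0.353 to 0.689) and 1.25 in cell 4 (0.667 to 2.37), and these intervals overlap slightly. Counts summed over the 5 cells other than cell 3 gave 1.26 (0.826 to 1.94). That interval leaves out the spread between these cells, from 0.714 in cell 2 to 1.75 in cell 1 where both genes were found. It was therefore not set against that of cell 3. Cell 6, with 5 counts of Pde4a and none of Pde1c, gave a lower bound of 0.916. Which of these genes led was therefore not settled. Of the mean Pde CPM over cells Pde4a held 36.0% and Pde1c 31.6%, whereas in pooled counts Pde1c held 41.8% and Pde4a 29.4%. Pde1c also led without cell 1 (33.8% against 33.5%) and without cell 6 (34.8% against 33.4%).

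Pde6d had 2, 10, 39, 21, 4 and 2 counts in cells 1 to 6 (232, 290, 318, 345, 178 and 171 CPM). It was named as a rod phosphodiesterase subunit, but encodes a carrier of lipid-modified proteins to cilia and cuts no cyclic nucleotide. It was the most even of the 17 members over the cells by CPM. Per kilobase of transcript Pde6d held 55.0% of the class, since its longest transcript is 1159 bases long against 8766 for Pde1c, although 3′-end counts do not grow with length. Pde7b, a cAMP-specific enzyme, had 3, 4, 0, 2, 1 and 0 counts in cells 1 to 6. In cell 3 its 0 counts allow up to 24.5 CPM, against 348 CPM in cell 1 and 116 CPM in cell 2.

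Grouped by substrate, with Pde6d and the small subunits Pde6g and Pde6h left out, cAMP-specific enzymes (Pde4, Pde7 and Pde8) held 127 of 292 counts (43.5%, 37.7% to 49.4%). Enzymes for both nucleotides held 158 (54.1%, 48.2% to 59.9%), of which 116 came from cell 3. Without cell 3 the order turned, with 68 of 113 counts cAMP-specific (60.2%, 50.5% to 69.3%) and 42 for both nucleotides (37.2%, 28.3% to 46.8%). The cGMP-specific enzymes (Pde5, Pde6 and Pde9) held 7 (2.40%, 0.969% to 4.88%). For cAMP-specific enzymes the share was 33.0% (26.1% to 40.4%) in cell 3, against 55.1% (40.2% to 69.3%) in cell 4, and these intervals overlap slightly. Of the remaining catalytic genes, Pde4d and Pde5a had 4 counts each, Pde6a had 3, Pde8a and Pde11a had 2, and Pde4b, Pde4c and Pde10a had 1. Pde2a, the cGMP-stimulated enzyme of necklace neurons, had none.

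Guanylyl cyclases, which make cGMP, had a single count, of the nitric oxide-sensitive subunit Gucy1a2 in cell 3. The necklace neuron receptor Gucy2d, Gucy1b2 of another atypical neuron type, and the other 6 genes had none, with the pooled limit of 11.5 CPM each. In cells 1 and 6 alone, 0 counts would allow up to 348 and 256 CPM.

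In protein kinase A, 1 catalytic and 1 regulatory gene held most of the counts. Prkacb, the beta catalytic subunit, had 3, 2, 34, 6, 6 and 3 counts in cells 1 to 6 (348, 58.0, 277, 98.5, 266 and 256 CPM), and Prkaca, the alpha subunit, had 0, 1, 10, 2, 1 and 0. Prkacb held 34 of 44 catalytic counts in cell 3 (77.3%, 62.2% to 88.5%) and 54 of 68 over all cells (79.4%, 67.9% to 88.3%). Its share of the mean catalytic CPM over cells was 87.4%, and 78.4% when counts were divided by transcript length.

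Prkar1a, the type I alpha regulatory subunit, had 3, 19, 24, 62, 15 and 4 counts in cells 1 to 6 (348, 551, 196, 1018, 666 and 341 CPM). Cell 4 was highest under each scaling tried and cell 3 lowest (cell 6 under TMM), with CPM intervals of 781 to 1305 CPM and 125 to 291 CPM. Prkar2a had 4 counts in cell 2 and 3 each in cells 3 and 4. Prkar1b and Prkar2b, the beta forms, had none. Prkar1a held 127 of 137 regulatory counts (92.7%, 87.0% to 96.4%). It lies on chromosome 11 (109649405 to 109669656, plus strand), and Prkacb on chromosome 3 (146729574 to 146812990, minus strand).

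Regulatory and catalytic subunits were balanced differently in the 2 deepest cells. Cell 3 had 0.614 regulatory counts per catalytic count (0.365 to 1.01) and cell 4 had 8.13 (3.89 to 19.6). Cell 2 had 7.67 (2.32 to 39.9), while cells 1, 5 and 6 had 1, 2.14 and 1.33 with intervals that include 1.

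Prkar1a and Adcy3 stood in opposite order in cells 3 and 4. They belong to different classes and were paired with their values known, so this contrast only describes the libraries. Prkar1a per Adcy3 was 0.158 in cell 3 (0.0981 to 0.244) and 0.231 in cell 1 (0.0422 to 0.840), against 12.4 in cell 4 (5.04 to 39.5). Cells 2, 5 and 6 lay between, at 1.27, 2.14 and 4. The plot of within-cell ratios shows cells 1 and 3 below 1 and cell 4 above it.

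**Figure D3:**
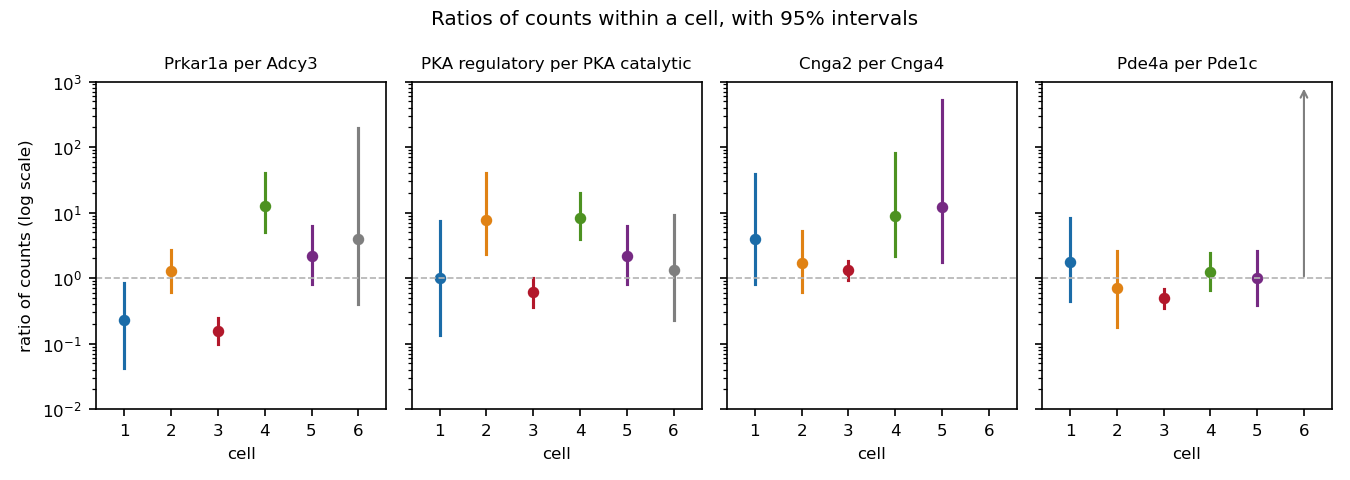
Ratios of counts within each cell on a log axis with exact 95% intervals, for Prkar1a per Adcy3, regulatory per catalytic kinase subunits, Cnga2 per Cnga4 and Pde4a per Pde1c. The dashed line marks a ratio of 1, and an arrow marks a cell with no count of the second gene. A cell without counts of either gene has no point. Prkar1a per Adcy3, a pair set together with its values known, was 0.158 in cell 3 and 12.4 in cell 4.

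Of the 13 members with 10 or more counts in cells 3 and 4 together, 4 were at least 4-fold higher in cell 3 (Adcy3, Cnga4, Cngb1 and Ano2) and 2 at least 4-fold lower (Prkar1a and Rapgef1). Among all 4326 genes with such counts, 14.5% were higher and 8% lower by that fold. The 4 higher members had 5, 2, 1 and 6 counts in cell 4, so they passed the filter only through cell 3. These values therefore describe 2 libraries, compared with earlier results known, and no trait of the family. Since the 4 higher members passed only through cell 3, no shift of the family can be read from a median over the 13. The median log2 ratio of cell 3 to cell 4 was 1.40 over the 13 members and -0.07 over all these genes. Beside this, red blood cell markers summed to 4080.1 CPM in cell 3 and 12610.4 CPM in cell 4 (4 of 5 found over all cells), and immature neuron markers to 963 and 2923 CPM (5 of 6 found). Their part in the difference was not tested.

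Rapgef genes encode exchange factors for Rap GTPases, of which Rapgef3 (Epac1) and Rapgef4 (Epac2) are known to bind cAMP. Neither had a count, with the pooled limit of 11.5 CPM, nor had Rapgef5. Rapgef1, an exchange factor downstream of tyrosine kinases, had 0, 2, 3, 9, 3 and 0 counts in cells 1 to 6. Rapgef2 had 4, 2, 6, 2, 2 and 0, and Rapgef6 had 0, 0, 3, 6, 1 and 0. Cell 4 had the most of Rapgef1 and Rapgef6, and cell 1 the highest level of Rapgef2 (464 CPM on 4 counts). The lead was not settled. Rapgef2 held 56.6% of the mean Rapgef CPM over cells, but Rapgef1 held 39.5% and Rapgef2 37.2% of the 43 pooled counts. Without cell 1, Rapgef1 led with 47.9% of the mean CPM.

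The spread between cells was compared with counting noise by an index of dispersion, the squared deviations from a constant CPM over those that Poisson counting gives, where 1 is counting noise alone. Because the index grows with the number of counts, members with 40 to 200 counts were set beside all 990 genes in that range, whose median was 3.03 (quartiles 1.78 and 5.33). Of 10 such members 7 lay above that median: Adcy3 (20.1), Prkar1a (11.8), Cnga4 (10.1), Pde1c (9.18), Ano2 (5.45), Cngb1 (5.37) and Cnga2 (5.31). Prkacb (2.29), Pde4a (2.02) and Pde6d (0.495) lay below it. Counts were not matched within that range, where the members ran from 44 counts (Cngb1) to 193 (Adcy3). The 7 of 10 is therefore not read as a trait of the family. If a count is a read rather than a molecule, amplification also adds to the index.

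Single cells carried several of these values. Without cell 4 the index of Adcy3 was 10.7, that of Prkar1a 4.95, of Cnga4 6.05, of Cngb1 3.13, of Ano2 3.50 and of Prkacb 1.49. Without cell 3 it was 3.10 for Prkar1a, 2.75 for Cnga4, 2.02 for Pde1c, 2.39 for Ano2 and 2.13 for Cngb1. Pde4a fell to 0.682 without cell 2, and Pde6d to 0.303 without cell 5. With TMM-scaled totals the index was 15.3 for Pde1c, 8.46 for Cnga2, 8.32 for Ano2 and 1.94 for Pde6d.

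**Figure D4:**
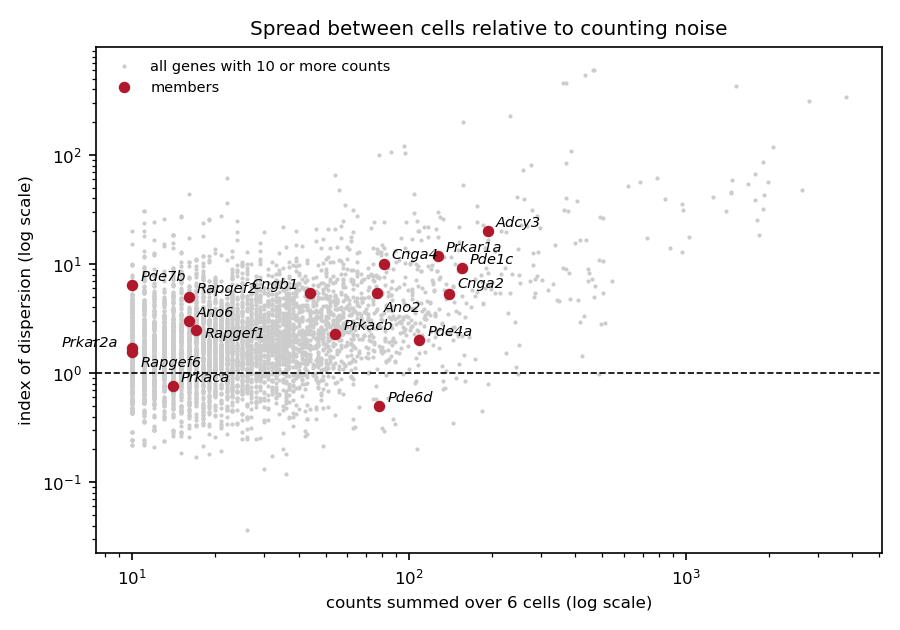
Index of dispersion over the 6 cells against the summed counts, both on log axes, for all 5368 genes with 10 or more counts (grey) and the 17 members (red, named). The dashed line at 1 is counting noise; Adcy3 (20.1) is the highest member and Pde6d (0.495) the lowest.

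Cell 6 had counts of 6 of the 71 members, 8.45%, where 8.36% of protein-coding genes had a count. The other cells had 13, 22, 28, 20 and 19 members in cells 1 to 5, beside 11.4%, 27%, 36.1%, 29.7% and 23.9% of protein-coding genes, and as shares of 71 these are 18.3%, 31.0%, 39.4%, 28.2% and 26.8%. The largest gap was that of cell 1, 18.3% against 11.4%, on 13 members in the shallowest library. No interval was computed for these shares, and the gap is not read as a result about the family. The members found in cell 6 were Adcy3, Pde4a, Pde4d, Pde6d, Prkacb and Prkar1a, 16 counts in all. At 11725 counts, a gene without counts there could still lie at up to 256 CPM by the limit of 3 counts, or 315 CPM by the upper end of the Poisson interval. Over cells 1 to 5 the median level was 203 CPM for Cnga4 and 87.0 CPM for Cngb1, below both limits. It was 311 CPM for Ano2, between them, and 533 CPM for Cnga2 and 464 CPM for Pde1c, above both. Single cells lay lower, with Cnga2 at 296 CPM in cell 4, between the limits, and Pde1c at 203 CPM in cell 2, below both.

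Other genes of olfactory transduction ranged from far more abundant than the members to nearly absent. Of 11 such genes, which include the G protein, its exchange factor and ion transport, 11 were found and 9 were found in all cells, with a summed median of 28532 CPM. The olfactory marker protein Omp had a median of 6161 CPM, Stoml3 one of 5733 CPM and the G protein subunit Gnb1 one of 2124 CPM. At the other end, the ion transporter Slc12a2 had a median of 244 CPM and the exchanger Slc24a4 had 3 counts in all; both were named after their values were seen. The highest member medians were 450 CPM for Prkar1a, 442 CPM for Pde4a, 440 CPM for Cnga2, 396 CPM for Pde1c and 373 CPM for Adcy3, which lie close together beside their ranges over cells.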

How the data were processed

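The data are raw counts per gene symbol for 6 single-cell CEL-Seq2 libraries, as deposited by the authors, with 55341 genes and 1 column per cell. Per the labels, only read 2 was aligned and the molecular identifier was kept in the read name. CASAVA, HTSeq, Bowtie2 2.3.4 and the mm10 build are listed in the submitters' processing notes. For annotation, strand setting and collapsing of molecular identifiers the entry is: not given in the sources used here. Therefore a count may be a molecule or a read, and all intervals cover counting error only. No other column was left unused.

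CPM was computed over all genes of a cell. Levels carry exact 95% Poisson intervals, shares Clopper-Pearson intervals and ratios of counts exact conditional binomial intervals (SciPy 1.17.1). A gene at 0 was given the level of 3 counts as its limit. Isoform shares over all cells used the mean CPM over cells, so a cell with more CPM of a class weighs more in them. Since reads come from 3′ ends, counts were not divided by length in the main values. The 4-fold comparison of cells 3 and 4 used a pseudocount of 0.5 counts. TMM factors came from edgeR 4.0.16. Gene positions, transcript lengths and exon overlaps came from GENCODE M21 (GRCm38). Transcript ends (1000 bases) of the 17 named members were searched in other genes by 50-base windows, of which at most 0.444% (Prkaca) matched. The intervals and the index were tested on simulated data.

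Members with 10 or more counts are named with their values in each cell. Those with fewer are named with their total or cell, and some members known from olfactory neurons are named whatever their values. Of each list of other pathway genes the 4 of highest median CPM were to be named, and 1 of these is not reported here. Members, lists and rules were chosen with earlier results of these data known. Alternatives were pooled or median shares, division by transcript length, TMM, median-of-ratios and reduced totals, detection at 3 or 10 counts, thinning to 8613 counts, and each cell left out. Leaving out Pde6d, Pde6g and Pde6h, and the substrate shares without cell 3, were added after the data were seen.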

Additional observations from a re-analysis of the deposited data

Results flagged for a closer look

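Levels over the 6 cells were checked for a value far from the others with Dixon's 95% limit for the gap over the range, in 17 members and 7 class sums. For normal values of equal spread about 1 in 20 such groups is past the limit by chance, and 2 of 24 were. Levels from libraries of unlike depth are not such values, and the class sums contain the members, so that rate is only a rough guide. Pde7b stood at 348 CPM in cell 1, with 116 CPM in the next cell, and Rapgef2 at 464 CPM in cell 1, with 88.8 CPM in the next. These rest on 3 and 4 counts in the shallowest library (8613 counts), with Poisson intervals of 71.8 to 1018 CPM and 127 to 1189 CPM.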

How the results depend on the processing

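The leading isoform's share, the median CPM of the 17 members and the class sums moved by less than the standard deviation over cells in each setting tried. That deviation is wide, so this rule could hardly fail and shows little about stability. Without cell 1 the share of Rapgef2 fell from 56.6% to 30.1% and the median of Cnga4 from 124 to 44.4 CPM, and both passed. The leader itself changed among the Pde and Rapgef genes as reported. Counts of detected members depended on depth. At 3 counts 22 members were found in at least 1 cell, 10 in at least 3 cells and 2 in all cells, and at 10 counts 11, 6 and 0. Thinned to the shallowest cell, means were 22.6, 12 and 2.95. Leaving out 1 cell at a time gave 29 to 34 members in at least 1 cell and 5 to 11 in all cells, with 11 when cell 6 was left out. Without Pde6d, Pde6g and Pde6h, a setting added after the data were seen, Pde4a held 45.2% of Pde CPM. Without cell 3, also added then, cAMP-specific enzymes held 60.2% of catalytic Pde counts and those for both nucleotides 37.2%, so the order turned. The index of dispersion moved by over 1.5 times in 21 of 102 fits without 1 cell and in 7 of 17 with TMM. No paired analysis was possible because all cells form 1 group. In the shallow cells 1 and 6 a gene at 0 may lie at up to 348 and 256 CPM, and differences between cells have no replicate check.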

Other observations

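Genes that restrain or place protein kinase A had medians of at most 123 CPM each. Of 14 such genes, 11 had a count and 1, the anchor Akap6, had a count in each cell. Of protein-coding genes 49.8% had a count in at least 1 cell and 2.89% in all 6. The list was chosen with earlier results known, so these shares are not read as a result about it. Summed, the 14 genes stood at a median of 688 CPM, lowest in cell 6 (171 CPM) and highest in cell 1 (1161 CPM), with 296 CPM in cell 4. The members with the highest medians were the nuclear anchor Akap8 (123 CPM), the kinase inhibitors Pkia (123 CPM) and Pkib (94.8 CPM), and Akap6 (87.1 CPM). Akap8 had 16 counts in cell 3 and 0 in cell 4, and Akap9, an anchor of the centrosome and Golgi named after its values were seen, had 24 and 0. The limit of 3 counts in cell 4 is 49.3 CPM, and Akap8 and Akap9 stood at 131 and 196 CPM in cell 3. Pkib and Akap6 went the other way, at 73.4 and 24.5 CPM in cell 3 against 131 and 32.8 CPM in cell 4. Among all genes with 10 or more counts in cells 3 and 4 together, 14.5% were at least 4-fold higher in cell 3. The contrast of Akap8 and Akap9 is therefore not read as a trait of the list.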
